A study of Mus musculus with 24 samples.

Results

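The 44 collagen genes measured by the array were followed across the livers of 4 groups of mice. A gene was a member when its probe set carried a single gene symbol in the platform annotation and that symbol had the form of a collagen chain gene (Col, a type number, a and a chain number). The rule matched 46 probe sets of 35556, and Col6a5 and Col6a6, the 2 genes with more than 1, were read through the brighter probe set, which left 44 of the 19938 genes tested. The mice were male wild-type C57Bl/6, given as 11 weeks of age, and ate diets with 45% of their energy as fat for 11 weeks before a fast of 4 hours. The age and the length of feeding cannot both describe the mice at sampling unless feeding began at birth, so the age is uncertain. The groups were fish oil germ-free, fish oil conventional, lard germ-free and lard conventional mice, where the fish oil was from menhaden and germ-free mice are raised without microbes, and each had 6 arrays. Arrays 3 and 4 of the fish oil germ-free group were nearer to each other than were the mice of any other within-group pair, so their mean entered as a single sample: n is 5 for fish oil germ-free mice and 6 for each other group. The labels name neither the breeder nor the litter or cage of any mouse, and they number the mice without stating more of their independence, so p-values measure the spread between these samples.

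Collagens are secreted proteins built of 3 chains wound into a triple helix. Fibrillar collagens such as types I, III and V form the tensile fibres of connective tissue, type IV forms the sheet of basement membranes, type VI forms beaded filaments, and the collagens known as FACITs (for example type XIV) sit on the surface of fibrils. In liver, the fibrillar chains are made mainly by stellate cells, portal fibroblasts and the myofibroblasts that arise from them, and scarring of the liver is the build-up of these fibres. Endothelial cells and hepatocytes make other types, among them type XVIII, whose end fragment is endostatin.

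All values below are log2 signals made by the authors, so a difference of 1 is a doubling. The threshold for calling a gene was an adjusted p of 0.05 (limma, Benjamini-Hochberg over the 19938 genes of a comparison). Array medians lay between 6.445 and 6.623. The fish oil conventional group varied most from mouse to mouse, with a median SD over 9969 genes of 0.204, against 0.120 in fish oil germ-free, 0.121 in lard germ-free and 0.122 in lard conventional mice. Over the 24 collagen genes above the median signal, the median SD was 0.134 in fish oil conventional mice, 0.135 in fish oil germ-free mice, 0.175 in lard germ-free mice and 0.131 in lard conventional mice. The tissue label was checked on 10 hepatocyte markers, whose mean signal lay at 13.67 to 13.69 in fish oil germ-free, 13.57 to 13.70 in fish oil conventional, 13.57 to 13.66 in lard germ-free and 13.55 to 13.68 in lard conventional mice. The clock index (Dbp minus Arntl, genes that peak at opposite times of day) ranged from -0.77 to 4.088 in fish oil germ-free mice, from -2.044 to 3.658 in fish oil conventional mice, from 3.596 to 4.595 in lard germ-free mice and from 1.96 to 4.334 in lard conventional mice.

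Promoter windows are shown first for 4 of the 5 genes that were called in every comparison with a call, since their calls shared a direction in each. Col1a1, the other such gene, had no window. Each runs from 250 bases before to 50 bases after the start of the gene in RefSeq (build GRCm38.p6), 5′ to 3′ on the strand of the gene, with capitals for matches, on either strand, to CCAAT (the letters of a CCAAT box), to GGGCGG (the core of a GC box) and to TATAAA (the letters of a TATA box).
Col1a2, chr6:4505368-4505667, plus strand: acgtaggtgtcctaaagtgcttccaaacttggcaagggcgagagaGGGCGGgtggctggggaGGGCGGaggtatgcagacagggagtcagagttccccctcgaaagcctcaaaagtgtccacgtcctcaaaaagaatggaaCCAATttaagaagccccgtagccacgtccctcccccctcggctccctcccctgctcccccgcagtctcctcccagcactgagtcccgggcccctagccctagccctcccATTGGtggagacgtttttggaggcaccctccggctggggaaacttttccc
Col3a1, chr1:45311288-45311587, plus strand: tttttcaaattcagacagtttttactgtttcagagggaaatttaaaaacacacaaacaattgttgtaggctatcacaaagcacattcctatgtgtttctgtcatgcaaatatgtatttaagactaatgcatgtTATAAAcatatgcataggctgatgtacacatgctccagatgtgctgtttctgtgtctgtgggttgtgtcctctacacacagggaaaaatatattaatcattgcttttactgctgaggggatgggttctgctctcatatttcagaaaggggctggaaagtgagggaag
Col6a1, chr10:76725995-76726294, minus strand: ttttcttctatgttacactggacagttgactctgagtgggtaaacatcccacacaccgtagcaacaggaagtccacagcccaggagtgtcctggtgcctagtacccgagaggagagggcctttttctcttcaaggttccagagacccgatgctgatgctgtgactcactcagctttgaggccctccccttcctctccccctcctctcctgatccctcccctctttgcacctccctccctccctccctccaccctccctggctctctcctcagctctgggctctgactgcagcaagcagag
Col6a3, chr1:90843922-90844221, minus strand: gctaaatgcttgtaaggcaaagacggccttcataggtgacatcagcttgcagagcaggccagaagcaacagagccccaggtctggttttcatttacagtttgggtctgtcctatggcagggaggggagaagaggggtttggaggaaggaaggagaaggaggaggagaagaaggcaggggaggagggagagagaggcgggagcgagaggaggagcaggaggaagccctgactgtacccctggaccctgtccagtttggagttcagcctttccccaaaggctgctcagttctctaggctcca
In Col1a2, GGGCGG began at -205 and -188 from the start, and CCAAT lay at -109 and, on the opposite strand, at the start itself. In Col3a1, TATAAA began at -117. The windows of Col6a1 and Col6a3 held none of the 3 motifs, which says only that these letters are not in these windows. Of the 44 members, 35 had at least 1 window. CCAAT was found in any window of 13 of these genes, against 37.4% of all 32851 windows of this length. The motif GGGCGG was found in 22 of the 35 genes, against 35.7% of all windows. For TATAAA the count was 5 genes, against 13.6% of all windows. A gene with several windows has more chances of a match, so these counts of genes and shares of windows are unlike measures. Among the 9 genes called in any comparison 7 had a window, with 1 holding the CCAAT letters, 3 those of the GC box and 1 those of the TATA box. No match shown overlapped another. A match is a description of the sequence only.

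Fish oil was first set against lard in germ-free mice, which asks what the diet did to the liver in the absence of microbes. Of 44 collagen genes, 9 fell on fish oil and 0 rose, and in all 9 the groups did not overlap. Over all genes, 8.59% were called lower in this comparison and 13.2% in either direction, and 7.35% lay lower without overlap. By class, 3 of 11 fibrillar genes (Col1a1, Col1a2, Col3a1), 3 of 7 beaded filament and anchoring fibril genes (Col6a1, Col6a2, Col6a3), 1 of 9 FACIT genes (Col14a1), 1 of 3 short-chain network genes (Col8a1) and 1 of 2 multiplexin genes (Col15a1) fell, while 0 of 6 basement membrane genes and 0 of 4 transmembrane genes were called. The median over the 44 genes was 0.01, against 0.00291 over all genes. In bulk liver, fewer cells of a type and less RNA per cell cannot be told apart.

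**Figure D1:**
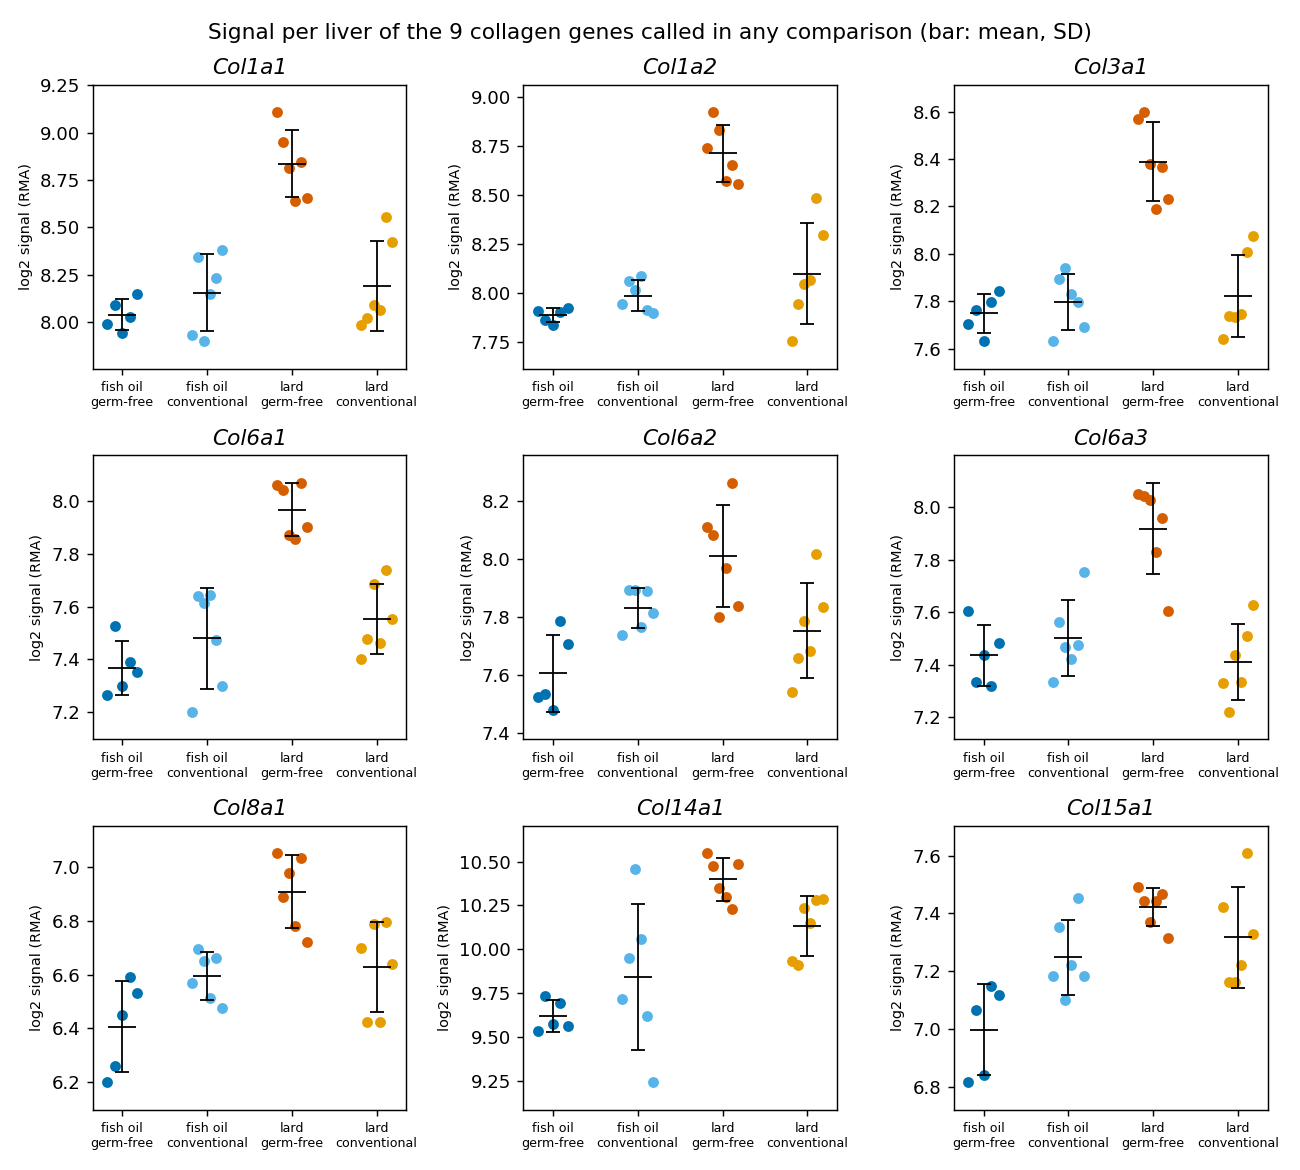
Log2 signal (vertical axes) of the 9 collagen genes called in any comparison, in each liver of the fish oil germ-free, fish oil conventional, lard germ-free and lard conventional groups (horizontal axes), with the mean and SD as bars. In Col1a1, Col1a2, Col3a1 and Col6a1 every lard germ-free mouse lies above every other mouse.

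Col1a1, a chain of type I collagen, the main fibril of scar tissue, had signals of 7.99, 8.09, 7.94, 8.03 and 8.15 in fish oil germ-free mice, against 8.64 to 9.11 (median 8.83) in lard germ-free mice. Conventional mice had 7.90 to 8.38 (median 8.19) on fish oil and 7.99 to 8.55 (median 8.08) on lard. The lard germ-free livers stood above all others and the remaining groups overlapped, and the gene was 1.74-fold lower on fish oil in germ-free mice (log2 difference -0.80 ± 0.11 SE, adjusted p = 4.6e-05).

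The partner chain of type I collagen, Col1a2, had signals of 7.91, 7.86, 7.84, 7.90 and 7.92 in fish oil germ-free mice, against 8.56 to 8.92 (median 8.70) in lard germ-free mice. Among conventional mice the range was 7.90 to 8.09 (median 7.98) on fish oil and 7.75 to 8.48 (median 8.06) on lard. Its fall on fish oil in germ-free mice was the largest of the 44 members (1.77-fold, -0.83 ± 0.09, adjusted p = 7.83e-06), with an SD of 0.04 in fish oil germ-free mice and of 0.15 in lard germ-free mice.

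Col3a1, which encodes type III collagen, laid down with type I, had signals of 7.70, 7.77, 7.63, 7.80 and 7.84 in fish oil germ-free mice, against 8.19 to 8.60 (median 8.37) in lard germ-free mice. In conventional mice it lay at 7.63 to 7.94 (median 7.81) on fish oil and at 7.64 to 8.07 (median 7.74) on lard. The pattern over groups was that of the type I chains, with a 1.56-fold fall on fish oil in germ-free mice (-0.64 ± 0.09, adjusted p = 4.42e-05).

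The chains of type VI collagen followed. Col6a1 had signals of 7.27, 7.53, 7.30, 7.39 and 7.35 in fish oil germ-free mice, against 7.86 to 8.07 (median 7.97) in lard germ-free mice. The conventional groups had 7.20 to 7.65 (median 7.55) on fish oil and 7.40 to 7.74 (median 7.51) on lard, below every lard germ-free mouse. The log2 difference between diets in germ-free mice was -0.60 ± 0.08 (adjusted p = 6.48e-05).

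Col6a2 had signals of 7.52, 7.53, 7.48, 7.78 and 7.71 in fish oil germ-free mice, against 7.80 to 8.26 (median 8.02) in lard germ-free mice. Signals in conventional mice were 7.74 to 7.89 (median 7.85) on fish oil and 7.54 to 8.02 (median 7.73) on lard, within reach of the lard germ-free values. Fish oil germ-free mouse 5, at 7.78, lay just below the lowest lard germ-free mouse, at 7.80, and the difference was -0.40 ± 0.09 (adjusted p = 0.00262).

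Col6a3 had signals of 7.61, 7.33, 7.44, 7.32 and 7.48 in fish oil germ-free mice, against 7.61 to 8.05 (median 7.99) in lard germ-free mice. Conventional livers had 7.33 to 7.75 (median 7.47) on fish oil and 7.22 to 7.63 (median 7.39) on lard. Lard germ-free mouse 6 was the low liver of its group, lay within the conventional range and exceeded fish oil germ-free mouse 1 by less than the second decimal, and the diet difference in germ-free mice was -0.48 ± 0.09 (adjusted p = 0.000727).

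Col14a1, a FACIT that binds fibril surfaces, had signals of 9.53, 9.73, 9.58, 9.70 and 9.56 in fish oil germ-free mice, against 10.23 to 10.55 (median 10.41) in lard germ-free mice. In the conventional groups it was 9.24 to 10.46 (median 9.84) on fish oil, the widest spread of any member in any group (SD 0.42), and 9.91 to 10.29 (median 10.19) on lard. The diet difference in germ-free mice was -0.78 ± 0.14 (adjusted p = 0.000439).

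Col8a1, which encodes a short-chain collagen of vessel walls and some basement membranes, had signals of 6.20, 6.26, 6.45, 6.59 and 6.53 in fish oil germ-free mice, against 6.72 to 7.05 (median 6.93) in lard germ-free mice. For conventional mice the values were 6.48 to 6.69 (median 6.61) on fish oil and 6.42 to 6.79 (median 6.67) on lard. The diet difference in germ-free mice was -0.50 ± 0.09 (adjusted p = 0.000403).

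Col15a1, a basement membrane associated collagen and relative of Col18a1, had signals of 6.82, 7.07, 6.84, 7.15 and 7.12 in fish oil germ-free mice, against 7.32 to 7.49 (median 7.44) in lard germ-free mice. The range in conventional mice was 7.10 to 7.45 (median 7.20) on fish oil and 7.16 to 7.61 (median 7.27) on lard. Here the lard germ-free mice lay inside the lard conventional range, and the fish oil germ-free mice were the low group (-0.42 ± 0.08, adjusted p = 0.00136).

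Its relative Col18a1 did not follow. Signals were 10.71, 10.54, 10.47, 10.49 and 10.57 in fish oil germ-free mice, against 10.13 to 10.40 (median 10.38) in lard germ-free mice, and the groups did not overlap, as for 4.64% of all genes in the higher direction. The difference of 0.23 ± 0.09 was not called (adjusted p = 0.123), though it was with equal array medians (0.29, adjusted p = 0.0449), with array weights (0.23, adjusted p = 0.0473) and in the fit on these 2 groups alone (0.23, adjusted p = 0.032). Conventional mice lay at 10.05 to 10.64 (median 10.35) on fish oil and at 10.14 to 10.44 (median 10.24) on lard.

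Other members named for their place in the fibril or basement membrane were not called. Col5a1 and Col5a2 encode chains of type V collagen, which starts type I fibrils. Col5a1 averaged 7.40 ± 0.14 in fish oil germ-free mice and 7.40 ± 0.10 in lard germ-free mice (SD, n = 5 and 6). Col5a2 averaged 6.35 ± 0.12 in fish oil germ-free mice and 6.51 ± 0.09 in lard germ-free mice (SD), a difference of -0.17 ± 0.08 (adjusted p = 0.167). Col27a1, a fibrillar collagen of cartilage, averaged 8.11 ± 0.07 in fish oil germ-free mice and 8.19 ± 0.28 in lard germ-free mice (SD). In Col27a1 the spread of the lard germ-free mice, 7.85 to 8.63, covered every mouse of the fish oil germ-free group.

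The remaining members were described by class. The 6 basement membrane genes differed by -0.12 to 0.03 between fish oil and lard in germ-free mice, with Col4a1 at 7.95 to 8.23 (median 8.05) in fish oil germ-free mice, against 7.95 to 8.36 (median 8.17) in lard germ-free mice. Their range was 0.11 to 0.17 for the same diets in conventional mice, where all 6 lay above 0 and 0 were called. The 4 transmembrane genes, which encode collagens anchored in the cell membrane (Col13a1, Col17a1, Col23a1 and Col25a1), differed by -0.05 to 0.05 in germ-free mice. Among the 9 FACIT genes, 8 lay above 0 in germ-free mice, at most 0.12, and Col14a1 was the exception. Col8a2, which encodes the partner chain of Col8a1, averaged 6.36 ± 0.21 in fish oil germ-free mice and 6.39 ± 0.14 in lard germ-free mice (SD). Col10a1, the collagen of growth-plate cartilage, averaged 5.56 ± 0.15 in fish oil germ-free mice and 5.48 ± 0.24 in lard germ-free mice (SD), against a 25th percentile of the arrays of 4.983 to 5.195. Further type VI chains, Col6a4, Col6a5 and Col6a6, were not called either, so that within type VI the calls were those of the Col6a1, Col6a2 and Col6a3 chains.

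**Figure D2:**
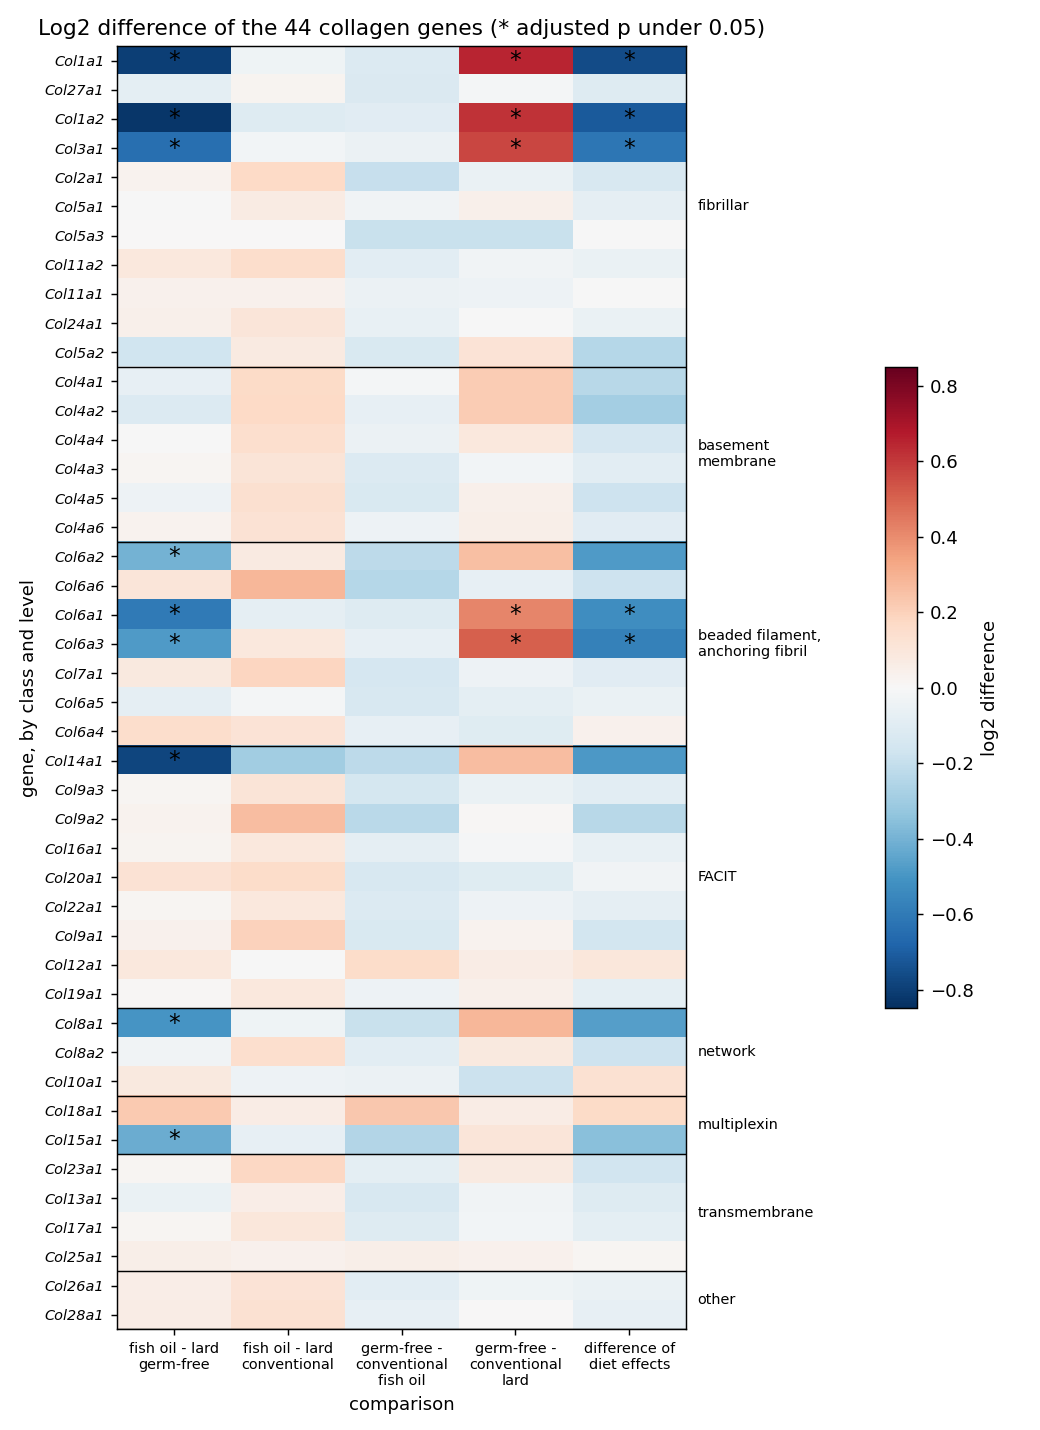
Log2 difference (colour) of the 44 collagen genes (rows, by class and signal) in the 5 comparisons (columns), with a star where the adjusted p is under 0.05. Stars fall on 9 genes in the diet comparison of germ-free mice and on 5 of these in the microbial comparison on lard and in the difference of diet effects, and on 0 in the other comparisons.

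The second question was what the absence of microbes did on lard. Of 44 collagen genes, 5 rose in germ-free mice and 0 fell, against 1.13% of all genes called higher and 1.82% in either direction. They were Col1a1 (1.57-fold, 0.65 ± 0.10, adjusted p = 0.00108), Col1a2 (1.53-fold, 0.61 ± 0.09, adjusted p = 0.000358), Col3a1 (1.48-fold, 0.57 ± 0.08, adjusted p = 0.000358), Col6a3 (0.51 ± 0.09, adjusted p = 0.00164) and Col6a1 (0.41 ± 0.08, adjusted p = 0.00612). This comparison uses the same lard germ-free mice as the diet comparison above, so the pair of results is not independent. The groups did not overlap in 5 genes, namely Col1a1, Col1a2, Col3a1, Col6a1 and Col4a2, against 1.04% of all genes.

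Col8a1 (0.28 ± 0.08, adjusted p = 0.086), Col6a2 (0.26 ± 0.08, adjusted p = 0.124), Col14a1 (0.26) and Col15a1 (0.10) were not called. Lard conventional mice 5 and 6 had the highest signals of their group in Col1a1 (8.55 and 8.43), Col1a2 (8.48 and 8.29) and Col3a1 (8.01 and 8.07), against at most 8.09, 8.07 and 7.74 in the other lard conventional mice. They still lay below every lard germ-free mouse in those genes.

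Col4a1 and Col4a2, the main chains of type IV collagen, share a stretch of DNA and run in opposite directions from it. Their RefSeq starts lie 21 bases apart on chromosome 8, and 78 bases of their windows are shared. The Col4a2 window is shown for that reason, with the shared bases in capitals.
Col4a2, chr8:11312555-11312854, plus strand: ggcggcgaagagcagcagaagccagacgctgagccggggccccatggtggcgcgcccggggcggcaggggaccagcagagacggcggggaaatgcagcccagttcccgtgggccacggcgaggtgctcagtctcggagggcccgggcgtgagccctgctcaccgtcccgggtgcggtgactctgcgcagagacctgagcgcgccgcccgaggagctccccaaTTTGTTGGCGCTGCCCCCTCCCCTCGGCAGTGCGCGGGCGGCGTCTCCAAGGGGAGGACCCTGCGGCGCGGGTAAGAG
Col4a1 had signals of 7.95 to 8.36 (median 8.17) in lard germ-free mice, against 7.71 to 8.05 (median 7.98) in lard conventional mice. The difference was 0.22 ± 0.08 and was not called (adjusted p = 0.213). Col4a2 had signals of 7.89 to 8.05 (median 7.98) in lard germ-free mice, against 7.63 to 7.82 (median 7.79) in lard conventional mice. Its difference was 0.22 ± 0.07, also not called (adjusted p = 0.166), although every lard germ-free mouse lay above every lard conventional mouse. Within groups the pair correlated at r = 0.539 over 23 samples. The neighbours Col6a1 and Col6a2 on chromosome 10 correlated at r = 0.589. Both are descriptions, since the samples were scaled together.

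Whether the diet effect differed between germ-free and conventional mice was tested directly. The log2 difference of fish oil minus lard was lower in germ-free than in conventional mice for 5 collagen genes. Over all genes 0.391% were called in that direction and 0.607% in either. The difference of diet effects was -0.76 ± 0.15 for Col1a1 (adjusted p = 0.0257), -0.71 ± 0.13 for Col1a2 (adjusted p = 0.0161), -0.61 ± 0.12 for Col3a1 (adjusted p = 0.0249), -0.58 ± 0.12 for Col6a3 (adjusted p = 0.0366) and -0.53 ± 0.12 for Col6a1 (adjusted p = 0.0412). Without lard conventional mouse 2 or without lard germ-free mouse 1, only Col1a2 of the 5 was called. The call of Col6a1 was lost in 19 and that of Col6a3 in 15 of 37 alternative settings. Col6a2 (-0.48 ± 0.12, adjusted p = 0.0622), Col8a1 (-0.47 ± 0.12, adjusted p = 0.0692), Col15a1 (-0.36 ± 0.12, adjusted p = 0.168) and Col14a1 (-0.49 ± 0.19, adjusted p = 0.271) fell in germ-free mice but were not shown to differ in their diet effect.

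**Figure D3:**
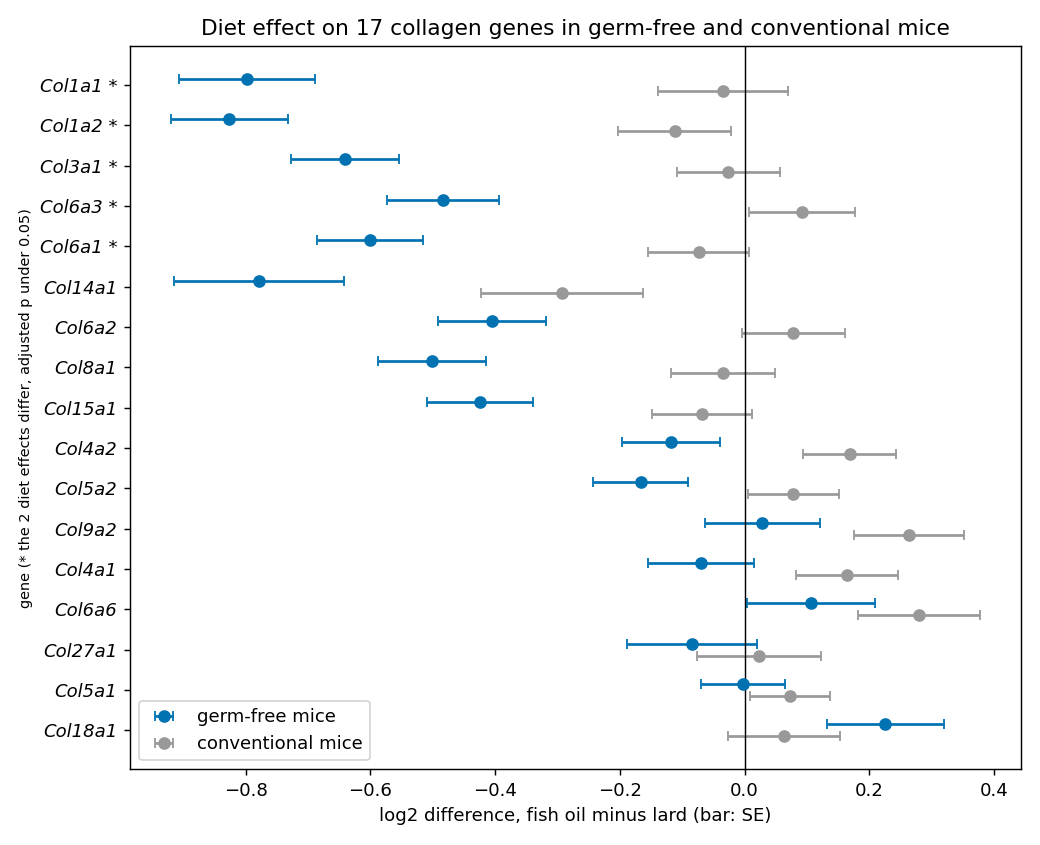
Log2 difference, fish oil minus lard (horizontal axis, with SE), of 17 collagen genes (rows) in germ-free mice (blue) and conventional mice (grey). In the 5 starred genes the germ-free effect lies between -0.83 and -0.48, and the conventional effect between -0.11 and 0.09.

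In conventional mice, limma called 0 of 44 collagen genes between fish oil and lard, with 5 at an unadjusted p under 0.05. Over all genes 0.808% were called and 16.6% had an unadjusted p under 0.05. The log2 differences were -0.03 ± 0.10 for Col1a1, -0.11 ± 0.09 for Col1a2 and -0.03 ± 0.08 for Col3a1. The smallest p-values were those of Col9a2, a cartilage FACIT (0.26 ± 0.09, adjusted p = 0.129), Col6a6, an additional type VI chain (0.28 ± 0.10, adjusted p = 0.152), and Col14a1 and Col4a2 at the same p (-0.29 ± 0.13 and 0.17 ± 0.07, adjusted p = 0.255). Col6a6 lay at 7.72 to 8.12 in fish oil conventional mice, against 7.47 to 7.69 in lard conventional mice, without overlap, as did 0.522% of all genes in that direction. Its other probe set differed by 0.02.

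On fish oil, limma called 0 of 44 collagen genes between germ-free and conventional mice, with 7 at an unadjusted p under 0.05, against 6.91% of all genes called (3.01% higher and 3.89% lower) and 20.3% at an unadjusted p under 0.05. Col1a1 differed by -0.12, Col1a2 by -0.10 and Col3a1 by -0.05. The smallest adjusted p was that of Col15a1 (-0.25 ± 0.08, adjusted p = 0.0739). This count depended on the mice: without mice 5 and 6 of both germ-free groups 7 members were called lower (Col15a1, Col2a1, Col5a3, Col6a2, Col6a6, Col7a1 and Col9a2), and without fish oil conventional mice 5 and 6 there were 2 (Col14a1 lower, Col18a1 higher). The shares of all genes called with those mice left out are not given here, so these counts are no result about the members.

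The 35 members not called moved with the scale of the array. Their mean, taken about the group mean, correlated with the 75th percentile of the array at r = -0.904 and with its median at r = 0.699 over 23 samples. For the mean of the 9 called members the same correlations were -0.0155 and 0.032. Pairs of the 16 uncalled members above the median signal had a median r of 0.622 (120 pairs), reaching 0.955 for Col7a1 with Col11a2, genes of skin anchoring fibrils and of cartilage. The 8 called members above the median signal had a median r of 0.523 (28 pairs), with 0.798 for Col1a2 with Col3a1, and the median between the sets was 0.0423 (128 pairs). These samples share the scaling of 1 run, and the split into called and uncalled genes uses their group differences, so the values are descriptions.

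The uncalled members also had small shifts between groups. In the diet comparison of conventional mice 32 of 35 lay above 0 (median 0.11, against 0.0132 over all genes), and in the microbial comparison on fish oil 32 of 35 lay below 0 (median -0.09, against -0.0258). Over all 44 members, called or not, the medians of these 2 comparisons were 0.09 and -0.10. With equal array medians they were 0.07 and -0.03, against -0.00707 and 0.0493 over all genes. That setting moves every gene of an array alike, so it cannot change the distance from all genes. With a second quantile normalization they were 0.07 and -0.04, against 0.00705 and 0.00364 over all genes. With the 75th percentile of the array as a covariate, an alternative chosen after seeing the data, Col6a6 (-0.21) and Col9a2 (-0.20) were called lower in the microbial comparison on fish oil.

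**Figure D4:**
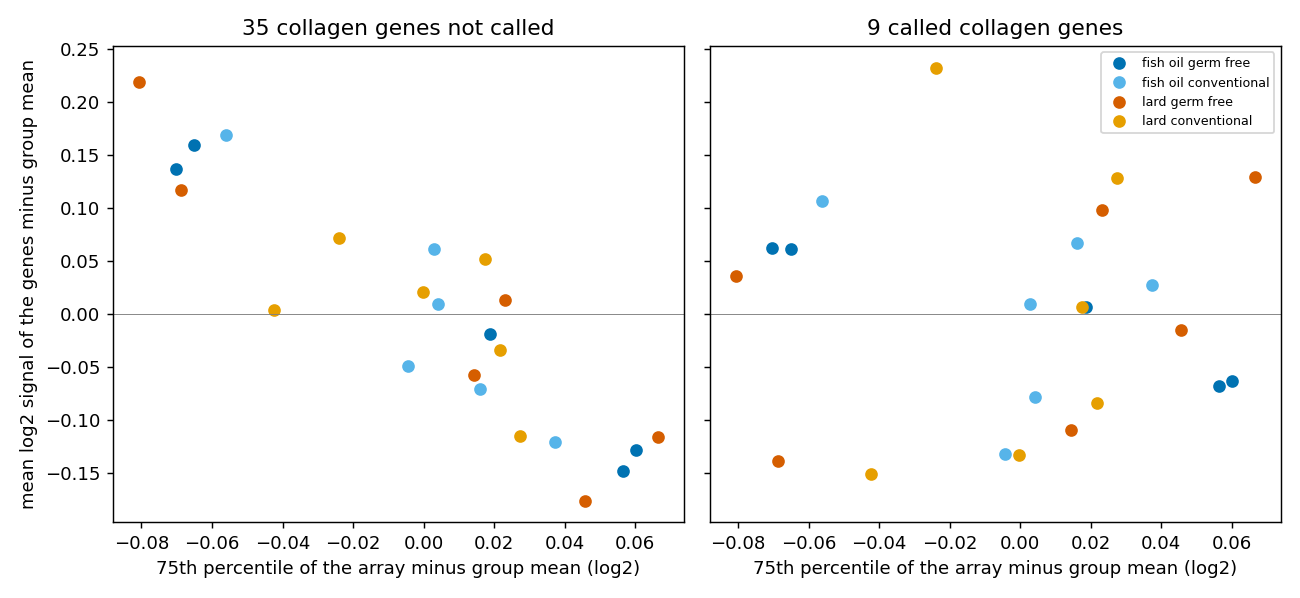
Mean log2 signal of the 35 uncalled (left) and the 9 called collagen genes (right) in each sample, minus its group mean, against the 75th percentile of the array minus its group mean. The left points fall along a line (r = -0.904) and the right points do not (r = -0.0155, n = 23).

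Genes that make, cross-link, bind or remove collagen were counted from lists chosen with earlier results known. The counts here and in the next paragraphs are for fish oil against lard in germ-free mice, where 8.59% of all genes were called lower and 4.58% higher. Of 18 genes of hydroxylation and folding, 4 fell and 1 rose, with a median of -0.11. The gene that rose was P4ha1, the catalytic subunit of prolyl 4-hydroxylase, which stabilises the helix. It had 9.38 to 9.57 over the single arrays of fish oil germ-free mice, against 8.25 to 8.64 in lard germ-free mice (1.06 ± 0.10, adjusted p = 1.09e-06). P4ha1 was also higher in germ-free than conventional mice on fish oil (1.39 ± 0.10, adjusted p = 7.33e-09) and on lard (0.44 ± 0.10, adjusted p = 0.0181), and its diet effects differed (0.95 ± 0.14, adjusted p = 0.00347), opposite in sign to the collagen genes. Those that fell were P3h4 (-0.40), Fkbp14, a folding isomerase (-0.83), Plod1, a lysyl hydroxylase (-0.25), and P3h3 (-0.22).

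Of 11 genes of procollagen processing and crosslinking, 3 fell, with a median of -0.01. Pcolce, which speeds removal of the procollagen end peptide, had a log2 difference of -0.82 ± 0.10 (adjusted p = 2.35e-05), and the cross-linking oxidase genes Loxl1 and Loxl3 had -0.51 and -0.21. Of 18 collagen-binding matrix genes, 13 fell, with a median of -0.45. Among them were Bgn (-0.46 ± 0.07, adjusted p = 0.000186) and Fbln2 (-0.49 ± 0.08, adjusted p = 0.000256), which encode biglycan and fibulin 2, and Sparc (-0.78 ± 0.13, adjusted p = 0.000341), which binds collagen outside the cell.

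Removal of collagen was represented by 12 genes of degradation and its inhibitors, of which 8 fell and 0 rose, with a median of -0.43. They were both proteases and inhibitors: Mmp2, a gelatinase gene (-0.95 ± 0.15, adjusted p = 0.00014), and the inhibitors Timp2 (-0.86 ± 0.11, adjusted p = 3.72e-05) and Timp3 (-0.90 ± 0.13, adjusted p = 9.87e-05). Of 8 collagen receptor genes 3 fell and 1 rose, with a median of -0.14. Ddr2, a receptor kinase for fibrillar collagen, and its relative Ddr1 had -0.40 and -0.37, and the integrin gene Itga1 -0.27, while Itga10 had 0.31. Signalling by TGF-beta and PDGF drives collagen transcription in mesenchymal cells, and the list for it also holds targets such as Ccn2. Of its 16 genes, 7 fell and 1 (Smad4, 0.22) rose, with a median of -0.30. Pdgfrb had -0.81 ± 0.12 (adjusted p = 0.000101), Tgfbi -0.65 ± 0.11 (adjusted p = 0.000322) and Pdgfra -0.42 ± 0.07 (adjusted p = 0.000485).

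**Figure D5:**
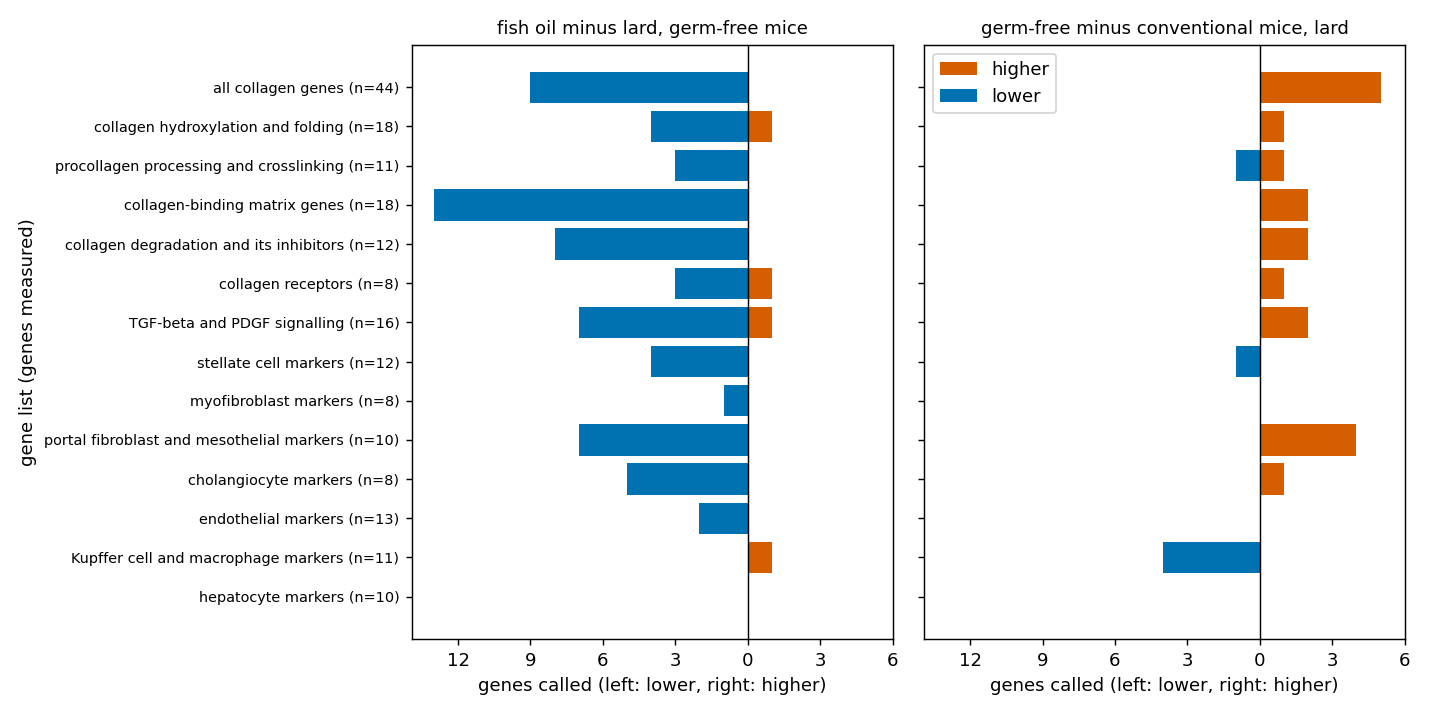
Number of genes called higher (right of 0) and lower (left of 0) in each list, fish oil minus lard in germ-free mice (left panel) and germ-free minus conventional mice on lard (right panel). The collagen-binding matrix list has 13 of 18 genes lower in the left panel and 2 higher in the right panel.

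In germ-free against conventional mice on lard, where 1.13% of all genes were called higher and 0.687% lower, the same lists gave fewer calls. Ccn2, a matricellular target of TGF-beta, had 0.75 ± 0.16 (adjusted p = 0.0118) and Tgfbr2, a TGF-beta receptor gene, 0.54 ± 0.12 (adjusted p = 0.0216), the 2 of 16 signalling genes that rose. Mmp2 (0.66 ± 0.14) and Timp2 (0.43 ± 0.11) were the 2 of 12 degradation genes, and Bgn (0.30 ± 0.07) and Lum (0.71 ± 0.19) the 2 of 18 matrix genes. Loxl1 rose (0.40 ± 0.09) and Pcolce2 fell (-0.69 ± 0.17) among 11 processing genes, and Ddr1 rose (0.41 ± 0.08) among 8 receptors. In the difference of diet effects, Pdgfrb (-0.82 ± 0.17), Timp2 (-0.73 ± 0.16), Pcolce (-0.70 ± 0.14), Loxl1 (-0.58 ± 0.14), Ddr1 (-0.49 ± 0.11) and Bgn (-0.44 ± 0.10) were called beside the 5 collagen genes. Between diets in conventional mice 0 genes of these lists were called.

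Some markers of the cells that make collagen fell beside it on fish oil in germ-free mice, and their part in the collagen results was not tested. Of 12 stellate cell markers, 4 fell on fish oil in germ-free mice (Lrat, the retinol-storing enzyme gene, -0.93 ± 0.17, then Pdgfrb, Dcn and Des) and 0 rose. The mean signal of the list was 8.581 to 8.643 in fish oil germ-free mice, against 8.793 to 9.002 in lard germ-free mice. Conventional mice had 8.545 to 9.017 on fish oil and 8.864 to 8.985 on lard. In germ-free against conventional mice, 1 marker (Colec11, -0.95 ± 0.24) fell and 0 rose on lard. On fish oil 2 fell and 0 rose. Over all genes, 0.687% on lard and 3.89% on fish oil were called lower. Of 10 portal fibroblast and mesothelial markers, 7 fell on fish oil in germ-free mice, among them Gas6 (-1.46 ± 0.21) and Cd34 (-0.98 ± 0.13), and 4 rose in germ-free mice on lard. The markers Thy1 (0.16) and Gli1 went the other way and lay above 0 on fish oil in germ-free mice, without a call. In germ-free against conventional mice on lard, Thy1 differed by -0.13, also not called. The mean of that list was 6.970 to 7.074 in fish oil germ-free, 7.058 to 7.328 in fish oil conventional, 7.383 to 7.574 in lard germ-free and 7.168 to 7.358 in lard conventional mice, highest in the lard germ-free group as for the type I chains. This was not particular to that list. The lard germ-free group also had the highest median of list means for cholangiocyte and myofibroblast markers. The same held for the matrix, degradation, receptor, hydroxylation and signalling lists. It did not hold for the stellate cell, endothelial, Kupffer cell, hepatocyte or procollagen processing lists.

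Cholangiocyte markers gave 5 of 8 lower on fish oil in germ-free mice and 1 of 8 (Epcam, 0.54 ± 0.11) higher in germ-free mice on lard, with list means of 6.074 to 6.197 in fish oil germ-free mice, against 6.373 to 6.564 in lard germ-free mice. With microbes present, the list means were 6.144 to 6.411 on fish oil and 6.154 to 6.264 on lard. Of 8 myofibroblast markers 1 fell (Timp1), and Acta2, Tagln, Myl9 and Cnn1 were not called. Of 13 endothelial markers 2 fell (Lyve1 and Eng), of 11 Kupffer cell and macrophage markers 1 rose (Clec4f), and 0 of 10 hepatocyte markers were called. Fbln2, Eln, Pdgfrb, Dcn, Timp1 and Lox stand in more than 1 list. In germ-free against conventional mice, Kupffer cell markers fell in 4 of 11 on lard and in 7 of 11 on fish oil, and endothelial markers in 0 of 13 on lard and 9 of 13 on fish oil, where 0.687% of all genes on lard and 3.89% on fish oil were called lower. Nnt, a mitochondrial gene deleted in part in some C57BL/6 substrains and chosen after its values were seen, was lower in germ-free than in conventional mice on lard (-1.27 ± 0.07) and on fish oil (-1.28 ± 0.08), and its part in the microbial comparisons was not tested. The labels name no substrain.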

How the data were processed

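Liver RNA was measured on 24 Affymetrix MoGene 1.0 ST arrays, each labelled as a separate mouse. The deposited log2 values come from the authors' RMA summary per gene, run once over all arrays with the Expression Console software of Affymetrix (engine apt 1.1.2800.28061, library version r4), per the file headers, and RMA is also named in the submitters' processing notes. Its quantile normalization hides any change that most genes share. The 2 deposited log2 tables differed by at most 0.005. No build is given for the array in those headers or the labels, and promoter windows are RefSeq's (GRCm38.p6).

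Of 35556 probe sets, 21789 had 1 symbol in the platform annotation, 1621 several and 12146 none, and 21698 of the first kind found their current symbol through the Entrez number. The probe set with the highest mean stood for each of 999 genes with more than 1, which left 19938 genes, all tested whatever their level. There is no read depth on arrays, so precision rests on how many mice were measured. Probe sets differ in brightness, so signals of different genes are not set against each other. The values of fish oil germ-free arrays 3 and 4 were averaged because the SD of their differences was 0.1231 over the 300 most variable genes, against 0.3491 for the next closest of 60 within-group pairs, so they may come from the same liver.

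Limma 3.58.1 (R 4.3.3; lmFit, then eBayes with its defaults; tested on simulated data) was fitted to 4 group means, with Benjamini-Hochberg adjustment over all genes within each of 5 comparisons. Values after ± are SE unless given as SD. The 17 named members were every member called in any comparison, the 3 smallest p-values of each, and 15 fixed genes; list genes named had up to the 3 smallest p-values among those called. Genes named outside this rule (Fkbp14, Plod1, Itga10, Smad4, Des, Acta2, Tagln, Myl9, Cnn1, Thy1, Gli1, Nnt and the members Col2a1, Col5a3, Col6a4, Col6a5, Col7a1, Col8a2, Col10a1, Col11a2 and the transmembrane genes) were chosen after their values were seen. Members, lists and naming rule were chosen with earlier results of these data known. For same-numbered mice, 8 of 33 correlations of their deviations exceeded 0.1 (range -0.414 to 0.239). Mice of different numbers were not set beside them, so pairing by number was not settled. Mice 5 and 6 of both germ-free groups had array 75th percentiles of 8.42 to 8.44, against 8.51 to 8.57 in the other germ-free arrays. The alternatives were a level filter, all or averaged probe sets, a second quantile normalization, equal array medians, array weights, a trended and robust variance, the other table, 24 separate arrays, fits on 2 groups, a replicate block, a clock index, mice that stand apart or single samples left out and, added after seeing the data, a covariate holding each array's 75th percentile.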

Additional observations from a re-analysis of the deposited data

Results flagged for a closer look

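In Col18a1, lard germ-free mouse 1 had a signal of 10.13 and lay apart from the other 5 of its group, at 10.32 to 10.40. This was the only such sample in 68 groups of the 17 named members, where chance gives about 1 in 20.

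The diet effect differed between germ-free and conventional mice in 5 members by the interaction contrast of limma. The differences of log2 effects were -0.76 ± 0.15 for Col1a1, -0.71 ± 0.13 for Col1a2, -0.61 ± 0.12 for Col3a1, -0.58 ± 0.12 for Col6a3 and -0.53 ± 0.12 for Col6a1, with adjusted p-values of 0.0161 to 0.0412. In Col1a1, Col1a2, Col3a1 and Col6a1 all 6 lard germ-free mice lay above all other mice.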

How the results depend on the processing

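The 19 called results (9, 5 and 5 member genes in 3 comparisons) were recomputed in 716 checks over 15 alternatives and 23 samples left out in turn, of which 678 kept their call, 38 lost it and 0 reversed. All 14 calls of the pairwise comparisons were kept wherever the gene was tested (Col8a1 was not tested under the level filter), and every lost call was in the difference of diet effects. There Col6a1 lost its call in 19 and Col6a3 in 15 of 37 settings, Col1a1 and Col3a1 in 2 each (without lard conventional mouse 2, without lard germ-free mouse 1; adjusted p up to 0.0538 and 0.0535), and Col1a2 in 0. Members called in that comparison numbered 5, but 3 with equal array medians, 3 with the replicate block, 4 with a second quantile normalization, 7 under the 75th percentile covariate or array weights (Col6a2 and Col8a1 added), 6 with the level filter, 24 separate arrays and the clock index (Col6a2 added), 6 without fish oil conventional mice 5 and 6, 6 without mice 5 and 6 of both germ-free groups, and 1 to 7 with single samples left out. In germ-free against conventional mice on lard there were 5, but 8 with array weights (Col4a2 and Col8a1 higher and Col5a3 lower were added) and 6 with the fit on 2 groups (Col4a2), without fish oil conventional mice 5 and 6 (Col4a2), without mice 5 and 6 of both germ-free groups (Col5a3 lower) and at most with single samples left out (Col4a2 or Col6a2). On fish oil there were 0, but 1 with the level filter (Col15a1), 1 with array weights, 1 with 24 separate arrays, 2 with the replicate block, 2 without fish oil conventional mice 5 and 6, 7 without mice 5 and 6 of both germ-free groups, 2 with the 75th percentile as a covariate, and 0 to 1 with single samples left out. The diet comparison of germ-free mice gave 9, but 8 with the level filter and 10 with equal array medians, array weights or the fit on 2 groups, each of which added Col18a1 as higher. That of conventional mice gave 0 in every setting run. The cause of these changes was not tested, apart from the filter, which tests fewer genes. Shares of all genes called in the alternative settings are not given here, so a changed count is not set against them. The replicate block changed no other call by more than 1.5 times. Signals near the array background limit the low members, such as Col10a1 at a mean of 5.58.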
